A study of Homo sapiens with 36 samples.

Results

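Proteins made for secretion, for membranes or for lysosomes pass through a shared set of machines, and the 57 genes described here encode them. They were chosen by name, as genes for the signal recognition particle and its receptor, the translocon, the COPII and COPI coats, ARF GTPases, early cargo receptors, clathrin and the clathrin adaptors. Earlier results of these data were known when they were chosen. Of the 57 genes, 54 had a probe on the array, among 20045 named genes, while KDELR2, SEC61G and SEC31A were not analysed here. The 54 genes were covered by 85 probes, 32 genes by 1 probe and 22 by several, and each gene was read by its probe with the highest mean signal.

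The signal recognition particle binds a nascent protein at the ribosome and hands it to its receptor at the endoplasmic reticulum, where the SEC61 channel takes it into or across the membrane. COPII-coated vesicles then carry cargo from the endoplasmic reticulum towards the Golgi, and COPI-coated vesicles bring receptors and escaped residents back. At the trans-Golgi network, on endosomes and at the cell surface, the AP-1, AP-2 and AP-3 adaptor complexes select cargo, and AP-1 and AP-2 build clathrin coats.

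The arrays came from a study that depleted HDAC11, a histone deacetylase, in cultured neuroblastoma cells. BE(2)-C, a line from a bone marrow metastasis without functional p53, and IMR-32 both carry MYCN amplification. Each line was transfected with 25 nM of HDAC11 siRNA no. 1, HDAC11 siRNA no. 2 or a negative control siRNA, and RNA was harvested after 42, 48 and 54 h. Each of the 18 groups held 2 arrays, 36 in all, so that every siRNA was read on 6 arrays of each line. The arrays of a group are labelled biological replicates, but nothing says whether they came from separate cultures, so p-values measure only the spread between these samples. siRNA no. 1 targets exon 8 of HDAC11, a gene on chromosome 3. The target of siRNA no. 2 is shown because it is the reagent of 12 of the 36 arrays, and it reads 5′ to 3′:
siRNA no. 2 target: gcgagacttcatggacgacaa

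Median signals of the 36 arrays lay between 104 and 135, at a background of 95.3 to 122, and 36.1 to 41.8% of probes were detected above background. The study reported lower HDAC11 mRNA by qRT-PCR, and lower protein by western blotting, in both lines with these siRNAs. The HDAC11 probe was detected on 2 of the 36 arrays, both IMR-32 controls, so the depletion could not be checked on these arrays. Its log2 changes with siRNA no. 1 were -0.07 (adjusted p = 0.641) in BE(2)-C and -0.09 (adjusted p = 0.425) in IMR-32, and with siRNA no. 2 they were -0.03 (adjusted p = 0.925) and -0.08 (adjusted p = 0.596). Of 7 measured adrenergic neuroblast markers, 7 were detected on all 18 BE(2)-C arrays and 6 on all 18 IMR-32 arrays, DBH being the exception. Of 8 mesenchymal markers, VIM, SNAI2 and TWIST1 were detected on all arrays of both lines and the other 5 on a minority of them.

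Several members on which the results turn share a short run of letters upstream of their start. CACGTG, the E-box that MYC family proteins bind, was searched in the 250 bases before the first start listed for each gene (RefSeq, GRCh38.p14), and 50 of the 57 members had an entry. It stood in 4 of the 50 members (8.0%) and in 1772 of all 27305 genes (6.49%), shares that lie close to each other. The 4 windows are shown because SEC24A, SEC16A, AP1S2 and TMED10 all appear among the changes described below, with CACGTG in capitals. The SEC24A window is chr5:134648535-134648784 on the plus strand. Those of SEC16A (chr9:136484741-136484990), AP1S2 (chrX:15854814-15855063) and TMED10 (chr14:75176613-75176862) are on the minus strand, and all are written 5′ to 3′ along the gene.
SEC24A: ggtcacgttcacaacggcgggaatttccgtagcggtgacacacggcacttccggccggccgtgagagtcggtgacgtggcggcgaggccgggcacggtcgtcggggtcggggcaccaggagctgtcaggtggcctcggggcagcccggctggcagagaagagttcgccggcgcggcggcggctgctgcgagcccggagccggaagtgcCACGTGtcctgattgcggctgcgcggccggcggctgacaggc
SEC16A: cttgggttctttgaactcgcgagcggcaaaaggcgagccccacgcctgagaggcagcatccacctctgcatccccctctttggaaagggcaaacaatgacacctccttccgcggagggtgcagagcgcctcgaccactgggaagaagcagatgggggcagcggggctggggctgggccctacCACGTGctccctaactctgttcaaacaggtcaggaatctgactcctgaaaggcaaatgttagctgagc
AP1S2: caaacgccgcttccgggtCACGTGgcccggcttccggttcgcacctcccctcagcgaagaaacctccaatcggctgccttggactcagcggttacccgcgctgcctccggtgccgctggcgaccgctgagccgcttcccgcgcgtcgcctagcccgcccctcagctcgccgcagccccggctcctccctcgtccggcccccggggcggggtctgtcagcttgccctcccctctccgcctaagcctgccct
TMED10: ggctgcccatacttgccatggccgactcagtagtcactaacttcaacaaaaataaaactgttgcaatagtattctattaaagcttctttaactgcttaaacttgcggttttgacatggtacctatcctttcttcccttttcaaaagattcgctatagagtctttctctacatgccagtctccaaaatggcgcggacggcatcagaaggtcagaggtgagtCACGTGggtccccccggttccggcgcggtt

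The E-box began 42 bases before the start in SEC24A, 68 in SEC16A, which has 3 listed starts, 30 in TMED10 and 232 in AP1S2. TGACG, the core of the element bound by CREB and ATF factors, was searched on both strands and stood in 20 of the 50 members (40.0%) and in 21.7% of all 27305 windows. Those windows were not limited to expressed genes, whereas nearly all measured members were expressed. Among the 20 were SEC24A, SEC24C, COPB2 and AP1S1, which rose with siRNA no. 1 in BE(2)-C, and ARF1, SEC62 and AP2B1, which fell. SEC13 and ARF5 were called with siRNA no. 2. The rest of the 20 were AP2M1, SEC24B, SRP19, CLTB, SEC63, COPB1, ARCN1, SRP54, SRP14, CLTC and COPE. On their brightest probes these were called in no comparison with control. Whether the element bears on the changes was not tested. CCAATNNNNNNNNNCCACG, the endoplasmic reticulum stress element, stood in 0 of the 50 members and in 0.0806% of all windows on either strand. CACGTG reads the same on both strands, and its first letters can overlap the end of the stress element. A match is only a match of letters. AP1M1, AP3B1, AP3D1, ARF4, KDELR2, SEC24D and SRPRA had no entry.

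Nearly all of the machinery was expressed, since 53 of the 54 measured members were detected on at least 19 of the 36 arrays, as were 10299 of the 20045 genes. COPZ2, a COPI subunit with a close relative in COPZ1, was detected on 16 of 36 arrays, and its changes against control ran from -0.14 (adjusted p = 0.335) to -0.02 (adjusted p = 0.94). Counts below are over the 53 expressed members, beside the share of the 10299 expressed genes that passed the same test. A gene was called at an adjusted p under 0.05 in limma, with the adjustment over all 47320 probes. Log2 fold changes are averages over the 3 time points and are given with their SE, from 6 arrays of an siRNA and 6 control arrays unless stated otherwise.

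With siRNA no. 1 in BE(2)-C, 15 members rose, where 23.4% of the expressed genes rose, and 7 fell, where 21.6% fell. In IMR-32 siRNA no. 1 raised 8 members (23.5% of expressed genes) and lowered 6 (19.7%). siRNA no. 2 raised 5 (12.0%) and lowered 11 (14.1%) in BE(2)-C, and raised 1 (11.2%) and lowered 4 (13.0%) in IMR-32. As shares of the 53 members, the rises in BE(2)-C made up 28.3% (siRNA no. 1) and 9.43% (siRNA no. 2) and the falls 13.2 and 20.8%. In IMR-32 the rises made up 15.1 and 1.89% and the falls 11.3 and 7.55%. The members' median change with siRNA no. 1 was 0.10 for BE(2)-C and -0.05 for IMR-32, against 0.01 and 0.02 over all expressed genes, and with siRNA no. 2 all 4 medians lay within 0.01 of 0. Single arrays weighed on some counts. Without the second 54 h control array, 11 members of BE(2)-C fell with siRNA no. 1, without the second 42 h array of siRNA no. 2 7 fell with it there, and without any 1 of 7 control or siRNA no. 2 arrays 3 rose with it there. In IMR-32 the 1 rise with siRNA no. 2, that of SEC24A, was lost without any 1 of 8 arrays. In bulk RNA of this kind, fewer cells of a type and less RNA per cell cannot be told apart.

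The balance of rises and falls depended on the scaling. With each array scaled by its median in place of quantile normalization, siRNA no. 2 raised 3 members and lowered 12 in BE(2)-C and raised 0 and lowered 4 in IMR-32, where siRNA no. 1 raised 6 and lowered 7. The share of rises among all called genes moved likewise with siRNA no. 2, from 45.9 to 24.9% in BE(2)-C and from 46.4 to 30.9% in IMR-32. Both siRNAs of a line were compared with the same 6 control arrays. Of the 53 members, 23 were called in none of the 4 comparisons with control, 8 in 1, 17 in 2, 5 in 3 and 0 in all 4, or 43.4, 15.1, 32.1, 9.43 and 0%. Over all expressed genes the shares were 29.4, 26.0, 26.6, 12.6 and 5.31%. The 5 were SEC24A, COPG1, SRPRA, AP1S2 and AP3D1.

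**Figure D1:**
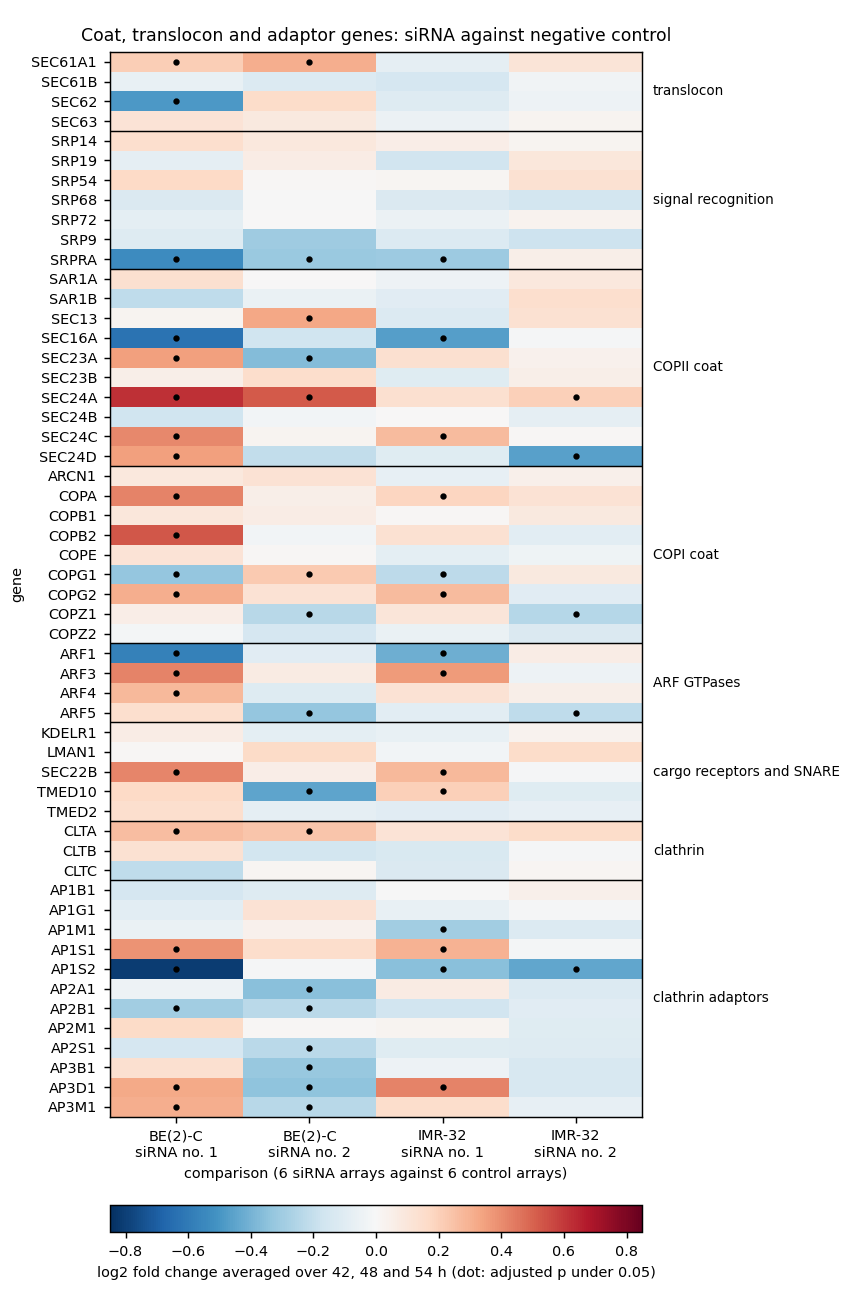
Colour gives each measured member's log2 fold change against the negative control, averaged over 42, 48 and 54 h, for the 4 combinations of cell line and siRNA, with members grouped by role and a dot where the adjusted p was under 0.05. The columns for siRNA no. 1 hold 22 dots in BE(2)-C and 14 in IMR-32, and those for siRNA no. 2 hold 16 and 5.

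siRNA no. 1 had 22 called members for BE(2)-C and 14 for IMR-32, of which 12 were shared, each in the same direction, which is 54.5% of the BE(2)-C calls and 85.7% of the IMR-32 calls. Among all expressed genes, same-direction calls made up 59.2% and 61.7% of the lists. The 7 that rose in both lines were SEC24C, COPA, COPG2, ARF3, AP1S1, AP3D1 and SEC22B, and the 5 that fell were SEC16A, COPG1, ARF1, SRPRA and AP1S2. With siRNA no. 2, 3 members were called in both lines, 18.8% of the 16 in BE(2)-C and 60.0% of the 5 in IMR-32, where same-direction calls made up 46.7% and 50.3% of the lists of all expressed genes. SEC24A rose, and COPZ1 and ARF5 fell.

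**Figure D2:**
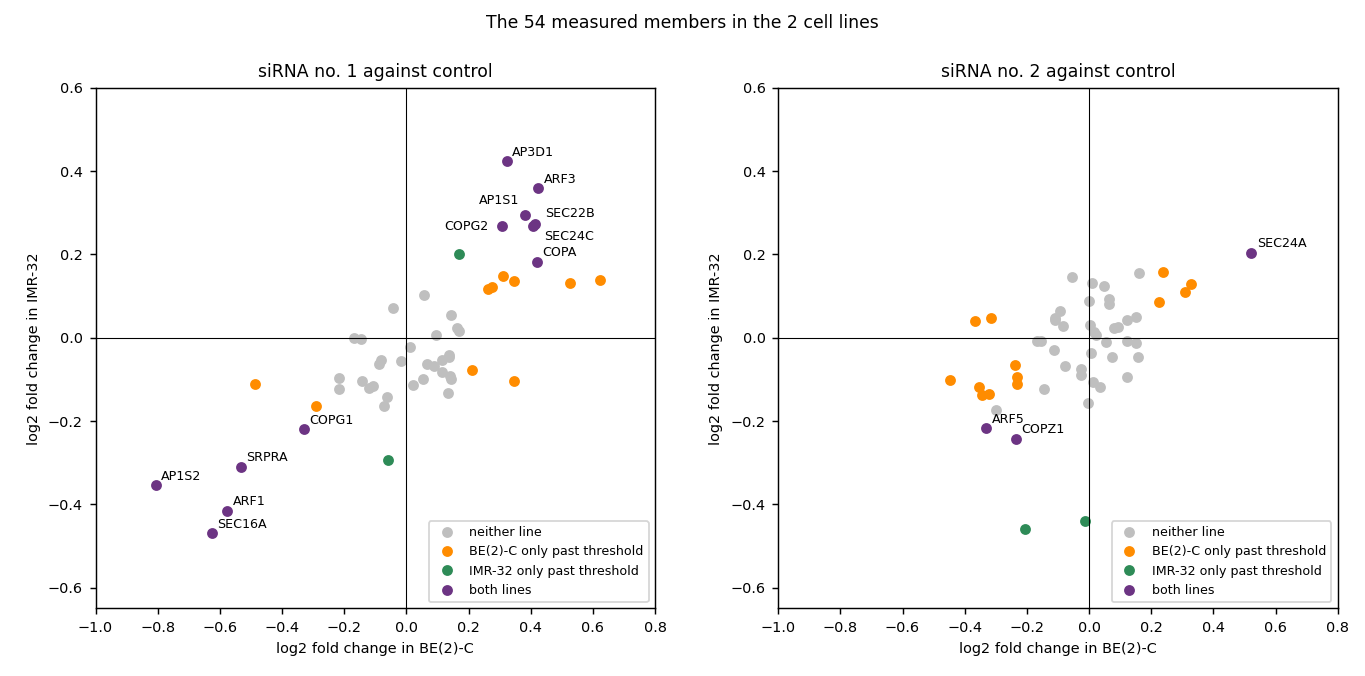
Each point is 1 of the 54 measured members, with its averaged log2 fold change in BE(2)-C on the x axis and in IMR-32 on the y axis, for siRNA no. 1 (left) and siRNA no. 2 (right), coloured by the lines in which the adjusted p was under 0.05. The labelled members passed in both lines, 12 with siRNA no. 1 (7 higher and 5 lower) and 3 with siRNA no. 2.

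A stricter rule of the study calls a gene regulated where both siRNAs change it in 1 direction at 2 or more of the 3 time points and in the other direction at none. SEC24A, one of the subunits that pick cargo for COPII vesicles, met it in BE(2)-C, where 1.92% of the expressed genes did. AP1S2, a small subunit of the AP-1 adaptor, met it in IMR-32, where 1.38% did. They were the only members to do so, 1 of 53 in each line, a share close to that of all expressed genes. Neither gene met the rule at an adjusted p under 0.01 or when all 3 time points were required. SEC24A also missed it after normexp background correction, and AP1S2 with median scaling. SEC24A missed it without either control array of 48 h, or without any 1 of the 4 siRNA no. 2 arrays of 48 and 54 h, and AP1S2 missed it without the second control array or the first siRNA no. 1 array of 42 h.

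Of the 7 signal recognition members, SRPRA, the receptor subunit that docks the particle at the membrane, was called against control on its brightest probe, and SRP9, a subunit of the particle, on a second probe only. The SRPRA signal in BE(2)-C was 487 to 551 (median 531) in the control arrays, 329 to 385 (median 366) with siRNA no. 1 and 345 to 497 (median 422) with siRNA no. 2. In IMR-32 it was 341 to 384 (median 353) in controls, 263 to 322 (median 283) with siRNA no. 1 and 339 to 392 (median 367) with siRNA no. 2. The siRNA no. 1 arrays lay below every control array of their line, while the siRNA no. 2 arrays overlapped the controls in both lines. SRPRA fell by 0.53 ± 0.06 (adjusted p = 7.89e-07) in BE(2)-C and by 0.31 ± 0.06 (adjusted p = 0.000196) in IMR-32 with siRNA no. 1, and in BE(2)-C by 0.32 ± 0.08 (adjusted p = 0.00823) with siRNA no. 2. In IMR-32 its value with siRNA no. 2 was 0.05 ± 0.06 (adjusted p = 0.785). The BE(2)-C effect of siRNA no. 2 minus the IMR-32 effect was -0.36 ± 0.10 (adjusted p = 0.0301). The 6 subunits of the particle itself, SRP9, SRP14, SRP19, SRP54, SRP68 and SRP72, had values between -0.30 and 0.17 against control on their brightest probes, none of them called. A second SRP9 probe, also detected on all 36 arrays, fell with siRNA no. 1 by 0.39 ± 0.06 (adjusted p = 4.66e-05) in BE(2)-C and by 0.51 ± 0.07 (adjusted p = 3.53e-07) in IMR-32, where the brightest probe read -0.11 (adjusted p = 0.575) and -0.11 (adjusted p = 0.247). Between the siRNAs in BE(2)-C the probes gave opposite calls, 0.19 (adjusted p = 0.0375) on the brightest and -0.30 (adjusted p = 0.000657) on the second, so that the direction for SRP9 depends on the probe.

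SRPRB, which anchors SRPRA in the membrane and belongs to a list of partner genes, moved further than any member. In BE(2)-C its signal was 1484 to 2141 (median 1751) in controls, 492 to 717 (median 530.2) with siRNA no. 1 and 2349 to 3247 (median 2627) with siRNA no. 2. In IMR-32 it was 1495 to 1698 (median 1652), 575 to 892 (median 687) and 2172 to 2434 (median 2271) in the same order. In both lines the 3 groups did not overlap, with siRNA no. 1 lowest and siRNA no. 2 highest. SRPRB fell with siRNA no. 1 by 1.70 ± 0.07 (adjusted p = 8.54e-14) and 1.18 ± 0.08 (adjusted p = 1.71e-13), and rose with siRNA no. 2 by 0.60 ± 0.07 (adjusted p = 1.25e-06) and 0.50 ± 0.06 (adjusted p = 1.06e-07). The direct difference of siRNA no. 1 from siRNA no. 2 was -2.30 in BE(2)-C and -1.69 in IMR-32.

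Of the 4 measured translocon members, SEC62 and SEC61A1 were called against control. SEC62, a partner of the channel for proteins that enter after synthesis, had a signal of 288 to 348 (median 313) in BE(2)-C controls, 205 to 247 (median 227) with siRNA no. 1 and 309 to 380.0 (median 357) with siRNA no. 2. The siRNA no. 1 arrays lay below all others, a fall of 0.49 ± 0.07 (adjusted p = 6.72e-06) against control. In IMR-32 the value was -0.11 ± 0.06 (adjusted p = 0.259), and the effect in BE(2)-C minus that in IMR-32 was -0.38 ± 0.09 (adjusted p = 0.00349). SEC61A1, the pore-forming subunit, rose in BE(2)-C by 0.21 ± 0.06 with siRNA no. 1 (adjusted p = 0.0151) and by 0.31 ± 0.07 with siRNA no. 2 (adjusted p = 0.00544). Its arrays overlapped, with 2127 to 3572 (median 2499) in controls, 2861 to 3450.2 (median 3059) with siRNA no. 1 and 2852 to 4684 (median 3087) with siRNA no. 2. SEC61B, another channel subunit, and SEC63, which works with SEC62, had values between -0.14 and 0.11 on their brightest probes, none of them called. A second SEC63 probe, detected on 29 of 36 arrays, fell with siRNA no. 1 by 0.57 ± 0.07 (adjusted p = 5.06e-07) in BE(2)-C, opposite in sign to the 0.11 of the brightest, and by 0.20 ± 0.06 (adjusted p = 0.0189) in IMR-32.

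The COPII coat held the member with the largest rise. SEC24A gave 167 to 207 (median 194) in BE(2)-C controls, 221 to 339 (median 297) with siRNA no. 1 and 227 to 297 (median 276) with siRNA no. 2. All 12 siRNA arrays lay above all 6 controls. It rose by 0.62 ± 0.07 (1.54-fold, adjusted p = 7.59e-07) with siRNA no. 1 and by 0.52 ± 0.07 (1.44-fold, adjusted p = 2.4e-05) with siRNA no. 2. In IMR-32 the groups overlapped, with 181 to 239 (median 205) in controls, 196 to 272 (median 230.0) with siRNA no. 1 and 209.5 to 281 (median 239.9) with siRNA no. 2. There the values were 0.14 ± 0.06 (adjusted p = 0.159) and 0.20 ± 0.07 (adjusted p = 0.0487). The latter call lay close to the threshold. With siRNA no. 2 the values at 42, 48 and 54 h were 0.50, 0.02 and 0.09, and the call was lost in 12 of the alternatives tried. The effect of siRNA no. 1 was larger in BE(2)-C than in IMR-32 by 0.48 ± 0.10 (adjusted p = 0.00085), while for siRNA no. 2 the difference was 0.32 ± 0.10 (adjusted p = 0.0913).

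SEC16A, the scaffold of the sites where COPII vesicles form, fell with siRNA no. 1 in both lines. Its signal was 659.8 to 818 (median 703) in BE(2)-C controls, 438 to 520.5 (median 461) with siRNA no. 1 and 623 to 672 (median 641) with siRNA no. 2. In IMR-32 it was 604 to 767 (median 692), 418 to 589 (median 501) and 599.6 to 773 (median 689). None of the siRNA no. 1 arrays reached the controls of its line. The falls were by 0.63 ± 0.07 (adjusted p = 2.81e-07) and by 0.47 ± 0.06 (adjusted p = 1.75e-07). With siRNA no. 2 the values were -0.17 ± 0.07 (adjusted p = 0.171) and -0.01 ± 0.06 (adjusted p = 0.977), and the direct difference between the siRNAs was -0.46 (adjusted p = 9.28e-07) in BE(2)-C and -0.46 (adjusted p = 7.6e-08) in IMR-32.

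Of the 4 SEC24 paralogues, which bind different cargo signals, SEC24A, SEC24C and SEC24D rose with siRNA no. 1 in BE(2)-C. Their other calls differed in comparison or direction. For SEC24C the rise with siRNA no. 1 was 0.41 ± 0.07 in BE(2)-C (adjusted p = 0.000211) and 0.27 ± 0.06 in IMR-32 (adjusted p = 0.00117), with 0.02 and 0.01 for siRNA no. 2. SEC24D was at 374 to 605 (median 424) in BE(2)-C controls and 496 to 681 (median 556) with siRNA no. 1, overlapping groups with a rise of 0.35 ± 0.08 (adjusted p = 0.00255). In IMR-32 it fell with siRNA no. 2 by 0.46 ± 0.06 (adjusted p = 1.54e-06), where 209.8 to 244 (median 235) lay below all controls at 289 to 348 (median 314). The siRNA no. 1 effect on SEC24D in BE(2)-C minus that in IMR-32 was 0.45 ± 0.11 (adjusted p = 0.00569). SEC24B had values between -0.17 and 0.00, none of them called, and 1 of its other probes gave -0.22 (adjusted p = 0.0473) with siRNA no. 1 in BE(2)-C.

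SEC23A, the inner-coat subunit that stimulates GTP hydrolysis by SAR1, moved in opposite directions with the siRNAs in BE(2)-C. Its signal was 269 to 338 (median 303) in controls, 349 to 462 (median 377) with siRNA no. 1 and 200.0 to 273 (median 231) with siRNA no. 2. The siRNA no. 1 arrays lay above all controls, and the siRNA no. 2 arrays overlapped only the lower end of the controls. The rise was 0.35 ± 0.07 (adjusted p = 0.000619), the fall 0.37 ± 0.07 (adjusted p = 0.00144) and the direct difference 0.71 ± 0.06 (adjusted p = 7.7e-10). In IMR-32 the direct difference was 0.10 ± 0.07 (adjusted p = 0.417), and the siRNA no. 2 effect in BE(2)-C minus that in IMR-32 was -0.41 ± 0.10 (adjusted p = 0.0139). Its paralogue SEC23B had values between -0.10 and 0.15, and SAR1A and SAR1B between -0.22 and 0.14, none of them called against control on the brightest probe. A second SAR1B probe, detected on all arrays, was called lower with siRNA no. 1 in BE(2)-C, at -0.24 (adjusted p = 0.00926), and higher with siRNA no. 2 in IMR-32, at 0.24 (adjusted p = 0.0116). SEC13, an outer-coat subunit that also sits in the nuclear pore, was at 569.6 to 756 (median 723) in BE(2)-C controls and 821 to 988 (median 869) with siRNA no. 2, a rise of 0.33 ± 0.07 (adjusted p = 0.00268) without overlap.

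Among the 8 expressed COPI subunits, COPB2, the cargo-binding beta-prime subunit, rose furthest. Its BE(2)-C signal was 872 to 1273 (median 1228) in controls, 1560.3 to 1729 (median 1687) with siRNA no. 1 and 1024 to 1353 (median 1116) with siRNA no. 2. The siRNA no. 1 arrays lay above all others, a rise of 0.52 ± 0.07 (adjusted p = 1.01e-05). In IMR-32 the value was 0.13 ± 0.06 (adjusted p = 0.136), and the effects differed by 0.39 ± 0.09 (adjusted p = 0.0043). COPA, the alpha subunit, rose with siRNA no. 1 by 0.42 ± 0.06 (adjusted p = 1.64e-05) and 0.18 ± 0.06 (adjusted p = 0.0203). Its siRNA no. 1 arrays were at 2713 to 3319.5 (median 2949.9) in BE(2)-C and 3532 to 3919 (median 3739) in IMR-32, above all controls at 2023 to 2617 (median 2166) and 2991 to 3512 (median 3345).

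The gamma subunit has 2 forms that replace each other in the coat, and with siRNA no. 1 they moved in opposite directions in both lines. COPG1 fell by 0.33 ± 0.07 (adjusted p = 0.000649) and 0.22 ± 0.06 (adjusted p = 0.00528), with BE(2)-C arrays at 339 to 407 (median 358) below all controls at 429 to 483 (median 469). COPG2 rose by 0.31 ± 0.09 (adjusted p = 0.0236) and 0.27 ± 0.06 (adjusted p = 0.000685), with IMR-32 arrays at 494 to 594 (median 543) above all controls at 382 to 485 (median 456) and overlapping arrays in BE(2)-C. With siRNA no. 2, COPG1 rose in BE(2)-C by 0.23 ± 0.07 (adjusted p = 0.0417), its 495 to 601 (median 546) lying above all controls, and COPG2 was not called. COPZ1, the zeta subunit, fell with siRNA no. 2 by 0.24 ± 0.07 (adjusted p = 0.0267) and 0.24 ± 0.06 (adjusted p = 0.00604). The other subunits, COPB1, COPE and ARCN1, had values between -0.08 and 0.12, none of them called.

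ARF1 recruits both COPI and AP-1 to Golgi membranes, and it fell with siRNA no. 1. In BE(2)-C its signal was 3007 to 5256 (median 4217) in controls, 2410.3 to 3137 (median 2763) with siRNA no. 1 and 3276 to 4599.8 (median 3764) with siRNA no. 2. In IMR-32 it was 3743 to 4244 (median 4086), 2857 to 3135 (median 2986) and 3907 to 4401 (median 4190.4). In IMR-32 the siRNA no. 1 arrays lay below both other groups, and in BE(2)-C 1 control array of 54 h lay within their range. ARF1 fell by 0.58 ± 0.07 (adjusted p = 1.27e-06) and 0.42 ± 0.06 (adjusted p = 7.21e-07), and a second probe detected on all arrays gave -0.59 and -0.46. The dimmest probe, detected on 23 of 36 arrays, gave -0.15 (adjusted p = 0.191) and -0.10 (adjusted p = 0.263).

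ARF3, a paralogue that acts at the trans-Golgi network, moved the other way. It rose by 0.42 ± 0.08 (adjusted p = 0.000213) in BE(2)-C and 0.36 ± 0.06 (adjusted p = 2.13e-05) in IMR-32, where 423 to 536 (median 460.0) stood above all controls at 304 to 409 (median 363). In BE(2)-C the groups overlapped, with 442 to 959.9 (median 840.3) in controls and 807 to 1247 (median 1028) with siRNA no. 1, and the 42 h arrays were the lowest of each group. ARF4, which also acts early in the route, rose in BE(2)-C with siRNA no. 1 by 0.27 ± 0.06 (adjusted p = 0.00321). ARF5 fell with siRNA no. 2 by 0.33 ± 0.07 (adjusted p = 0.00287) and 0.22 ± 0.06 (adjusted p = 0.0271).

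**Figure D3:**
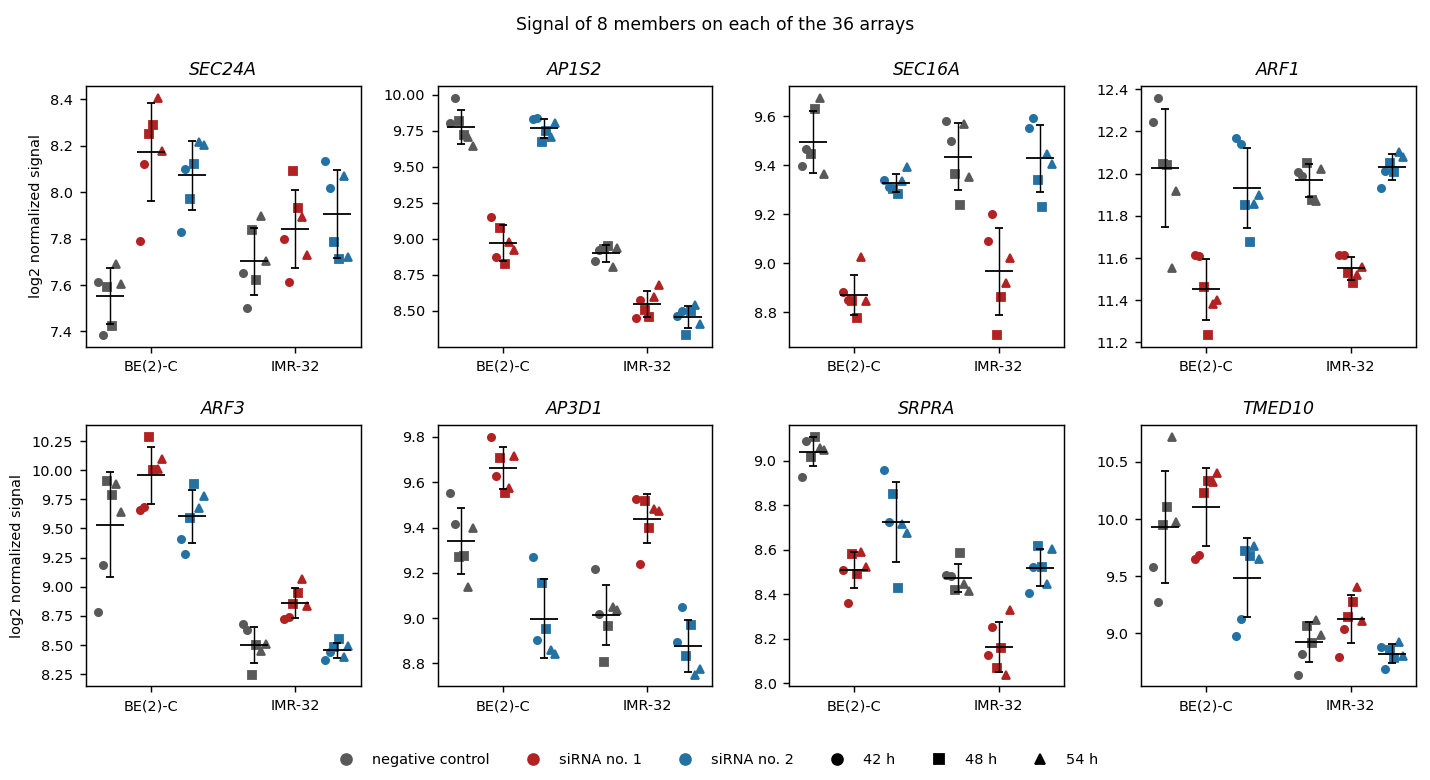
Log2 normalized signal of 8 members on each of the 36 arrays, with colour for the siRNA, marker shape for the time point, and a bar and whiskers for the mean and SD of the 6 arrays of each group. SEC24A is higher with both siRNAs in BE(2)-C, AP1S2 is lower with both in IMR-32, and SEC16A, ARF1 and SRPRA are lower with siRNA no. 1 in both lines.

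Among the cargo receptors, TMED10, a p24 family member of COPI and COPII vesicles, fell in BE(2)-C with siRNA no. 2 by 0.45 ± 0.10 (adjusted p = 0.00309) and rose with siRNA no. 1 in IMR-32 by 0.20 ± 0.06 (adjusted p = 0.0281). Its BE(2)-C signal was 621 to 1682 (median 999) in controls and 504 to 872 (median 812) with siRNA no. 2, and in IMR-32 399 to 557 (median 496) in controls and 444 to 678 (median 559) with siRNA no. 1. Both pairs overlapped, the 42 h arrays being the lowest in BE(2)-C. SEC22B, a SNARE of the same route, was at 538 to 662 (median 606) in BE(2)-C controls and 728 to 850.0 (median 792) with siRNA no. 1, without overlap, a rise of 0.41 ± 0.06 (adjusted p = 1.99e-05). The rise in IMR-32 was 0.27 ± 0.06 (adjusted p = 0.000309). KDELR1, the receptor that returns escaped residents, LMAN1, a cargo lectin, and TMED2 had values between -0.10 and 0.16, none of them called against control.

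AP1S2 had the largest change of any member. In BE(2)-C its signal was 801 to 1009 (median 868) in controls, 453 to 569.7 (median 494) with siRNA no. 1 and 815 to 914 (median 877) with siRNA no. 2. In IMR-32 it was 447 to 495 (median 487), 351 to 411 (median 373) and 323 to 373 (median 357). Every siRNA group lay wholly below its controls, except that of siRNA no. 2 for BE(2)-C. AP1S2 fell with siRNA no. 1 by 0.81 ± 0.07 (1.75-fold, adjusted p = 6.55e-09) in BE(2)-C and 0.35 ± 0.06 (adjusted p = 1.02e-05) in IMR-32. With siRNA no. 2 the value was -0.01 ± 0.06 (adjusted p = 0.962) in BE(2)-C, and in IMR-32 it fell by 0.44 ± 0.06 (adjusted p = 1.41e-06). The effect in BE(2)-C minus that in IMR-32 was -0.45 ± 0.09 for siRNA no. 1 (adjusted p = 0.000461) and 0.43 ± 0.09 for siRNA no. 2 (adjusted p = 0.00191). A second AP1S2 probe gave -0.80 and -0.34 with siRNA no. 1 for BE(2)-C and IMR-32, and -0.39 with siRNA no. 2 in IMR-32.

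AP1S1, which takes the place of AP1S2 in other copies of the complex, rose where AP1S2 fell with siRNA no. 1. Its rises were 0.38 ± 0.09 (adjusted p = 0.00416) in BE(2)-C and 0.29 ± 0.07 (adjusted p = 0.00119) in IMR-32, with overlapping arrays in both lines. With siRNA no. 2 in IMR-32, where AP1S2 also fell, AP1S1 was not called. There 3 of its 6 arrays lay above the control mean of their time point and 3 below. The other AP-1 subunits, AP1B1, AP1G1 and AP1M1, were not called against control in BE(2)-C, and in IMR-32 AP1M1 fell with siRNA no. 1 by 0.29 ± 0.05 (adjusted p = 9.47e-05).

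AP-3 sorts cargo to lysosomes and related organelles. AP3D1, its delta subunit, was at 563 to 752 (median 647) in BE(2)-C controls, 752 to 891 (median 813) with siRNA no. 1 and 459 to 617 (median 488) with siRNA no. 2, and in IMR-32 at 447 to 595 (median 522), 604 to 737 (median 713) and 431 to 530.1 (median 466). Only the siRNA no. 1 arrays in IMR-32 stood wholly apart from their controls, although in BE(2)-C the siRNA groups did not overlap each other. AP3D1 rose with siRNA no. 1 by 0.32 ± 0.07 (adjusted p = 0.00117) and 0.42 ± 0.06 (adjusted p = 2.07e-06), and with siRNA no. 2 it fell by 0.34 ± 0.08 (adjusted p = 0.00396) in BE(2)-C, the IMR-32 value being -0.14 ± 0.06 (adjusted p = 0.202). AP3M1 of BE(2)-C rose with siRNA no. 1 by 0.31 ± 0.06 (adjusted p = 0.000738). In the siRNA no. 2 arrays AP3M1 and AP3B1 fell there by 0.24 ± 0.07 (adjusted p = 0.0213) and 0.32 ± 0.07 (adjusted p = 0.00372). In the direct comparison in BE(2)-C, AP3D1, AP3M1 and AP3B1 were higher with siRNA no. 1 than with no. 2 by 0.67, 0.55 and 0.46 (adjusted p = 2.14e-08, 4.35e-08 and 8.46e-07).

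AP-2 is the adaptor of endocytosis at the cell surface, and 3 of its 4 subunits fell in BE(2)-C with siRNA no. 2. AP2A1 fell by 0.35 ± 0.07 (adjusted p = 0.00263), AP2S1 by 0.23 ± 0.06 (adjusted p = 0.024) and AP2B1 by 0.23 ± 0.07 (adjusted p = 0.0495), while AP2M1 was at 0.01 (adjusted p = 0.968). AP2B1 fell also with siRNA no. 1, by 0.29 ± 0.06 (adjusted p = 0.00176). With AP-3 counted in, siRNA no. 2 lowered 6 of the 12 adaptor members in BE(2)-C and raised 0, where 14.1% of expressed genes fell and 12.0% rose. Median scaling gave the same member counts. With it, though, rises made up 24.9% of all called expressed genes, against 45.9% with quantile normalization. Without 1 array the count lower was 3 to 6, AP2B1, AP2S1 and AP3M1 being the calls that were lost. Second probes of these 3 genes, each detected on all 36 arrays, read -0.19, -0.16 and -0.23 and were not called (adjusted p = 0.175, 0.143 and 0.0808). A second AP2A1 probe, detected on 18 of 36 arrays, was called at -0.41 (adjusted p = 0.00797). None of the 6 was called at a single time point. The median over the 12 in BE(2)-C was -0.17 with siRNA no. 2 and -0.05 with siRNA no. 1. In IMR-32 it was -0.02 with siRNA no. 1 and -0.11 with siRNA no. 2. Of the clathrin chains, the light chain CLTA rose in BE(2)-C by 0.26 ± 0.07 (adjusted p = 0.00632) with siRNA no. 1 and 0.24 ± 0.07 (adjusted p = 0.0293) with siRNA no. 2, and CLTB and CLTC were not called against control.

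Where a called member had another probe detected on at least 19 arrays, the direction in the comparisons with control was the same in all 16 such pairs of probes, and the other probe was itself called in 8 of them. Where the brightest probe was not called, the direction was the same in 48 of 64 such pairs, and the other probe was called in 10, of 7 genes. Beside SRP9, SEC63, SAR1B and SEC24B these were SEC13 and AP2S1 in IMR-32, at -0.33 (adjusted p = 4.26e-05) and -0.19 (adjusted p = 0.0197), and AP2M1 in BE(2)-C, at 0.21 (adjusted p = 0.0252), all with siRNA no. 1. The direction was opposite for SEC63 in BE(2)-C.

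Of the 57 calls of members against control, 11 were lost when at least 1 of the 12 single arrays was left out, and no value changed sign. With siRNA no. 1 they were COPG2 in BE(2)-C and COPA and TMED10 in IMR-32, whose values without 1 array were at least 0.23, 0.16 and 0.15. In BE(2)-C they were 6 of the 16 calls with siRNA no. 2, where COPG1 and CLTA kept at least 0.18 and 0.19 and COPZ1, AP2B1, AP2S1 and AP3M1 came no nearer to 0 than -0.19, -0.17, -0.20 and -0.21. In IMR-32 with siRNA no. 2 they were SEC24A, at least 0.15, and ARF5, no nearer to 0 than -0.15. Of the 9 differences between the lines, that of CLTB with siRNA no. 1 was lost in 18 of the 24 cases with 1 array left out, and those of SEC23A and SRPRA with siRNA no. 2 in 1 and 12 of 24.

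The siRNAs were also compared directly, without the controls. In BE(2)-C, 19 members were higher with siRNA no. 1 than with siRNA no. 2 (28.6% of expressed genes) and 9 were lower (25.3%). In IMR-32, 12 were higher (26.1%) and 10 lower (24.0%). After SEC23A and AP3D1, TMED10 was furthest above in BE(2)-C, at 0.62 ± 0.06 (adjusted p = 7.37e-09), and AP1S2 and SEC62 were furthest below, at -0.79 ± 0.07 (adjusted p = 2.92e-10) and -0.64 ± 0.07 (adjusted p = 1.03e-08). Among IMR-32 values AP3D1 was furthest above, at 0.56 ± 0.06 (adjusted p = 3.68e-09), and ARF1 furthest below, at -0.48 ± 0.06 (adjusted p = 1.71e-08). COPG1 was lower with siRNA no. 1 in both lines, at -0.56 and -0.31. Effects that differed between the lines were found for 6 members with siRNA no. 1, where 22.2% of expressed genes differed, and for 3 with siRNA no. 2, where 7.06% did. Without the second 54 h control array of BE(2)-C, 5 members differed with siRNA no. 2.

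No member's effect passed a test of change over time. Effects at 54 h less those at 42 h were called in limma for 0 of 53 members in BE(2)-C with siRNA no. 1 (0% of expressed genes) and no. 2 (0%), and in IMR-32 with siRNA no. 1 (0%) and no. 2 (0%). At an unadjusted p under 0.05 there were 5, 2, 3 and 2. For siRNA no. 1 and BE(2)-C, AP1S2 was at -0.88, -0.82 and -0.73 at 42, 48 and 54 h, SEC16A at -0.56, -0.73 and -0.59, and SEC24A at 0.46, 0.76 and 0.64. Among the BE(2)-C controls 12 of 53 members differed between 54 and 42 h (12.2% of expressed genes), and in the IMR-32 controls 0 did (0%), with 1 at an unadjusted p under 0.05. AP1S1 was higher at 54 h in the BE(2)-C controls by 1.03 (adjusted p = 0.00028), TMED10 by 0.92 (adjusted p = 0.00177) and ARF3 by 0.77 (adjusted p = 0.00106), and AP1M1 was lower, at -0.83 (adjusted p = 0.000294). The pair of BE(2)-C control arrays of 54 h correlated less with each other (r = 0.984 over probes) than any other replicate pair (0.991 or more). Without the first of them 7 members differed (4.03% of expressed genes) and without the second 19 did (24.3%), while without the first or second 42 h control array 8 (5.26%) and 5 (4.12%) did. AP1S1, ARF3 and AP1M1 passed in each case, and TMED10 missed without the second 42 h array, at 0.92 with and 0.77 without it (adjusted p = 0.062). A difference resting on 1 array of a time point takes its spread from the other groups.

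**Figure D4:**
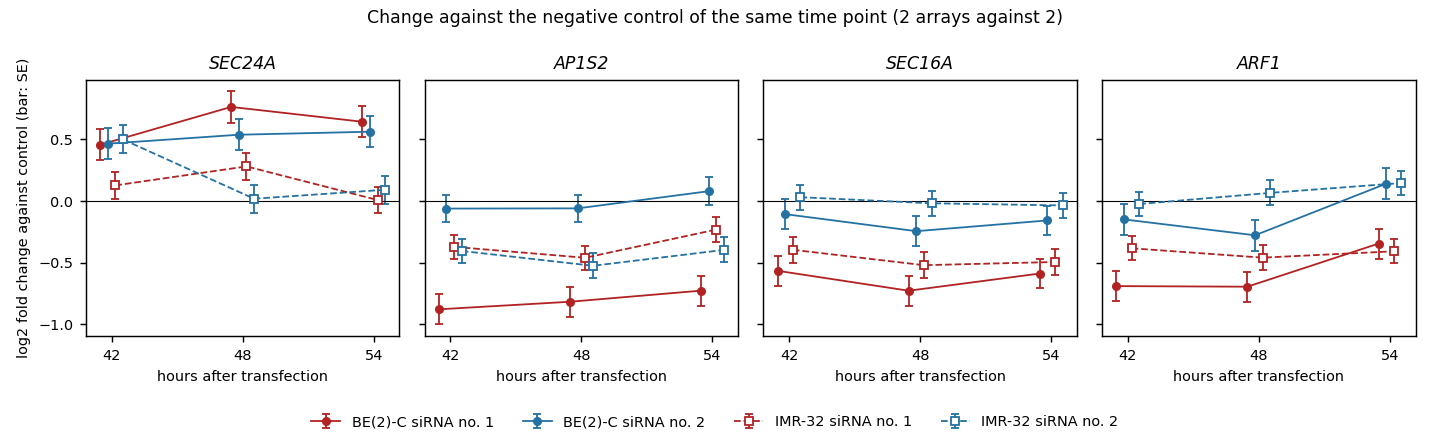
Log2 fold change against the control of the same time point, with SE, for SEC24A, AP1S2, SEC16A and ARF1 at 42, 48 and 54 h, in BE(2)-C (filled points, solid lines) and IMR-32 (open points, dashed lines), with siRNA no. 1 in red and siRNA no. 2 in blue. The points for AP1S2 in BE(2)-C with siRNA no. 1 run from -0.88 at 42 h to -0.73 at 54 h.

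More members differed between the negative controls of the lines than with any siRNA. Of the 53 members, 31 were higher in BE(2)-C controls than in IMR-32 controls (33.0% of expressed genes) and 10 were lower (34.6%), with a median difference of 0.30 against 0.00 over all expressed genes. Median scaling gave 23 higher and 11 lower members, and moved the share of higher among all called genes from 48.8 to 37.2%. Of the 12 clathrin adaptors 11 were higher in BE(2)-C, with a median of 0.60 over the 12, and AP1M1 was lower, at -0.21 ± 0.07 (adjusted p = 0.0195). With median scaling 9 of them were higher and 1 lower. All 3 clathrin chains were higher in BE(2)-C controls, by 0.30 for CLTA, 0.30 for the heavy chain CLTC and 0.78 for the light chain CLTB.

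AP1S1 differed most, at 677 to 1718 (median 1252) in BE(2)-C controls and 302 to 397 (median 350.0) in IMR-32 controls, higher by 1.70 ± 0.08 (adjusted p = 3.18e-14). SAR1B, a GTPase that starts COPII assembly, was at 1428 to 2422 (median 1643) and 633 to 732 (median 708), higher by 1.30 ± 0.09 (adjusted p = 2.02e-11). Neither gene's groups overlapped. Its paralogue SAR1A differed by 0.05 ± 0.06 (adjusted p = 0.701). AP1G1, the gamma subunit of AP-1, was higher by 1.04 ± 0.07 (adjusted p = 4.13e-12), ARF3 by 1.03 ± 0.07 (adjusted p = 4.87e-11) and TMED10 by 1.01 ± 0.09 (adjusted p = 4.21e-09). From 42 to 54 h AP1S1, ARF3 and TMED10 changed by 1.03, 0.77 and 0.92 in BE(2)-C controls. In IMR-32 controls they changed by 0.196, -0.175 and 0.325. Whether the line difference of these 3 genes changes with the hour was not tested, and each hour held 2 control arrays per line.

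In the other direction COPG2 stood furthest, at 155 to 219 (median 181) in BE(2)-C and 382 to 485 (median 456) in IMR-32 controls, again without overlap. The difference was -1.27 ± 0.08 (adjusted p = 2.07e-12), while COPG1 was at 0.12 ± 0.06 (adjusted p = 0.209). SRP68, a protein subunit of the signal recognition particle, was lower in BE(2)-C at -0.64 ± 0.06 (adjusted p = 8.35e-09), SEC13 at -0.59 ± 0.07 (adjusted p = 2.19e-07, with -0.13 and adjusted p = 0.243 on a second probe) and COPA at -0.55 ± 0.06 (adjusted p = 4.75e-08). Of the 5 measured cargo receptor and SNARE members, KDELR1, TMED2 and SEC22B were lower in BE(2)-C, at -0.52, -0.49 and -0.32.

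**Figure D5:**
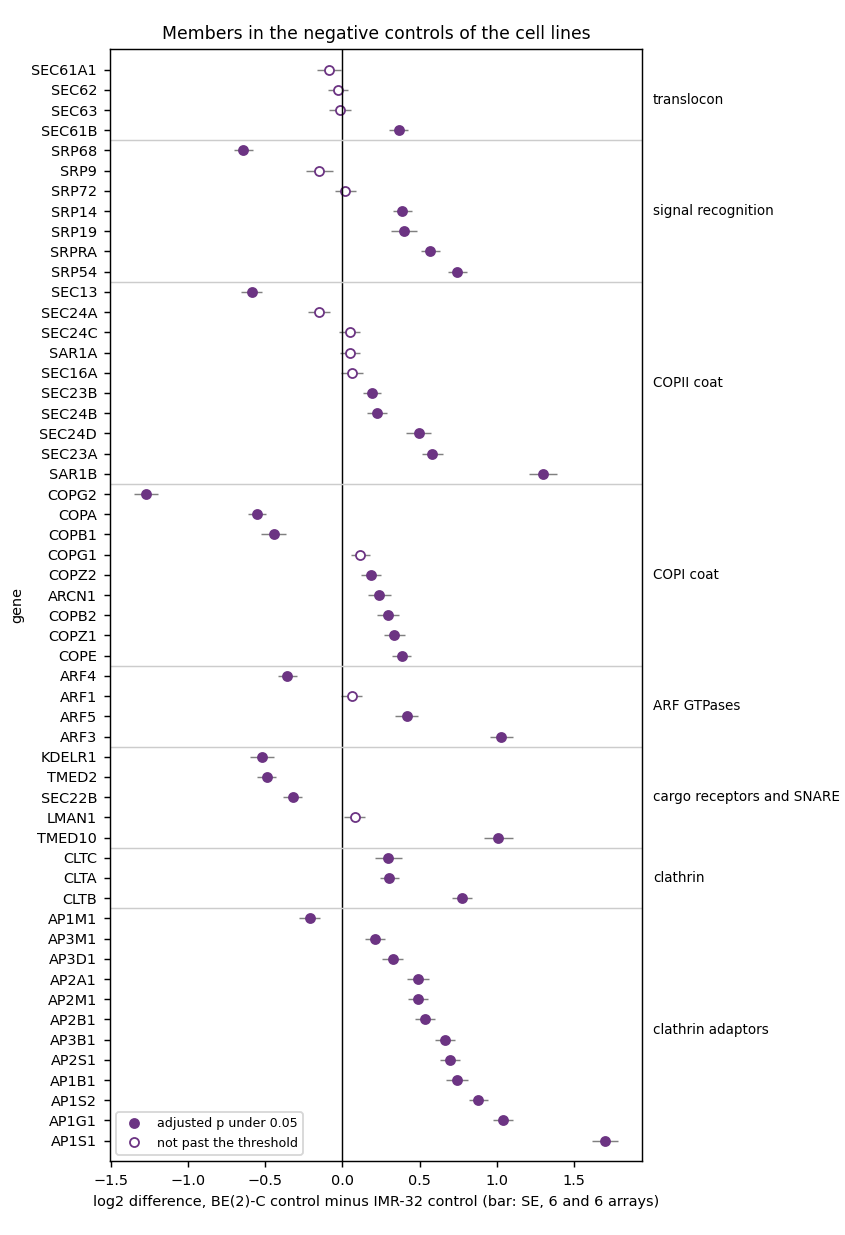
Log2 difference of the 6 BE(2)-C control arrays from the 6 IMR-32 control arrays for the 54 measured members, grouped by role, with SE bars and filled points where the adjusted p was under 0.05. The points run from -1.27 for COPG2 to 1.70 for AP1S1, and 11 of the 12 clathrin adaptors lie to the right of 0.

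Partners of these machines, a list of further genes of the same pathways, were counted in the same way. The list was chosen with earlier results of these data known, so its shares are descriptive only. Of 91 measured partners 78 were expressed. With siRNA no. 1, 25 of them rose (32.1%, where 23.4% of expressed genes did) and 20 fell (25.6%, against 21.6%) in BE(2)-C, and 22 rose (28.2%, against 23.5%) and 14 fell (17.9%, against 19.7%) in IMR-32. With siRNA no. 2, 10 rose (12.8%, against 12.0%) and 9 fell (11.5%, against 14.1%) in BE(2)-C, and 16 rose (20.5%, against 11.2%) and 4 fell (5.13%, against 13.0%) in IMR-32. PREB, which loads SAR1 with GTP and so starts COPII assembly, fell with siRNA no. 1 by 0.95 ± 0.07 (adjusted p = 1.71e-10) in BE(2)-C and 0.76 ± 0.06 (adjusted p = 5.89e-12) in IMR-32. TRAPPC6A, a subunit of a vesicle tether, rose by 0.67 ± 0.10 and 0.76 ± 0.06, and SEC23IP, which binds SEC23, by 0.34 ± 0.06 and 0.27 ± 0.06. TMED5, a relative of TMED10, fell by 1.00 ± 0.09 and 0.51 ± 0.06, while MCFD2, the cofactor of LMAN1, rose by 0.53 ± 0.07 and 0.26 ± 0.07 and the lectin LMAN2L by 0.38 ± 0.07 and 0.39 ± 0.06.

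STT3A and STT3B, the catalytic subunits of the oligosaccharyltransferases beside the translocon, fell with siRNA no. 1 by 0.45 and 0.54 in BE(2)-C and by 0.52 and 0.65 in IMR-32. The ARF exchange factors ARFGEF1 and ARFGEF2 rose by 0.33 and 0.44 in BE(2)-C and by 0.54 and 0.24 in IMR-32. For BNIP1, a SNARE of the return route, the rise with siRNA no. 2 was 0.41 in BE(2)-C and 0.38 in IMR-32.

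IGF2R and M6PR, the mannose 6-phosphate receptors that AP-1 vesicles carry, rose with siRNA no. 1 in both lines. IGF2R was at 662 to 1176 (median 897) in BE(2)-C controls and 1615 to 1882 (median 1818) with siRNA no. 1, without overlap, a rise of 0.98 ± 0.07 (adjusted p = 2.97e-10), and it rose by 0.74 ± 0.06 (adjusted p = 4.52e-11) in IMR-32. M6PR rose by 0.94 ± 0.08 and 0.61 ± 0.06, and NECAP1, which works with AP-2 in endocytosis, by 0.76 ± 0.07 and 0.75 ± 0.06. With siRNA no. 2, the values in BE(2)-C and IMR-32 were 0.86 and 0.52 for M6PR (adjusted p = 3.78e-08 and 2.31e-07), 0.69 and 0.67 for NECAP1 (adjusted p = 4.97e-07 and 6.18e-10) and 0.18 and 0.07 for IGF2R (adjusted p = 0.169 and 0.671). The 15 named partners were picked among genes called in both lines, so small adjusted p-values follow from the choice. The larger limma value of the lines was at most 0.0045.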

How the data were processed

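RNA of both neuroblastoma lines was hybridised to HumanHT-12 BeadChips and scanned on an iScan reader. Beads over 2.5 median absolute deviations from the rest were removed and the remaining ones averaged by the authors. The deposited values are the mean intensity of each probe without background correction or normalization, with a detection p-value that the authors deposited beside it. A second deposited table holds the same arrays as intensity after the authors' quantile normalization, and served as an alternative.

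Of 47323 probes, 3 with blank cells or with values of 0 were left out. The other 47320 were quantile-normalized over the 36 arrays, log2-transformed and tested in limma 3.58.1 (R 4.3.3), with a coefficient for each group and Benjamini-Hochberg adjustment over all 47320 probes. Each comparison was fitted on its own arrays, as in the study's methods: 12 for a comparison with control, of the siRNAs or of the controls, and 24 for a difference between the lines. The array number limits the precision. Fits were tested on simulated data. Expressed means detected (detection p-value under 0.01) on at least 19 of 36 arrays. Genes were named by the platform annotation, in which 30112 probes had 1 symbol, 8 several and 17202 none, and a gene was read by its probe with the highest mean log2 signal.

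All members are accounted for by role, and values by group are given for members regulated by both siRNAs, for the 4 largest rises and falls in each comparison with control, for the 4 largest differences each way between the control lines and for paralogues. Up to 3 partners of each list are named, those with the largest change among genes called with the same sign by 1 siRNA in both lines. Members and lists were chosen with earlier results of these data known. Replicate numbers did not pair the samples: the 18 correlations of same-numbered deviations lay between -0.010 and 0.069. No slide was named in the sources used here. Alternatives were quantile normalization per line, median scaling, normexp background correction with an offset of 50, the authors' normalized table, a filter on dim probes, an intensity trend with a robust prior, an adjusted p under 0.01, another choice of probe, a replicate block and leaving out each array.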

Additional observations from a re-analysis of the deposited data

Results flagged for a closer look

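Each result here was picked out because a direct test of the difference between the cell lines, in limma, passed for a member. With siRNA no. 1 the effect in BE(2)-C minus the effect in IMR-32 was 0.48 for SEC24A (adjusted p = 0.00085), 0.45 for SEC24D (adjusted p = 0.00569), 0.39 for COPB2 (adjusted p = 0.0043) and 0.27 for CLTB (adjusted p = 0.0485). It was -0.45 for AP1S2 (adjusted p = 0.000461) and -0.38 for SEC62 (adjusted p = 0.00349). With siRNA no. 2 it was -0.41 for SEC23A (adjusted p = 0.0139), -0.36 for SRPRA (adjusted p = 0.0301) and 0.43 for AP1S2 (adjusted p = 0.00191). AP1S2 thus appears for both siRNAs, with differences of opposite sign. CLTB was called against control in neither line, at 0.13 and -0.13 with siRNA no. 1. Groups of 2 arrays were too small to test for a single array far from the others.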

How the results depend on the processing

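For the 157 called values of expressed members, 2735 of 3014 settings tried kept the direction and the side of the threshold, 269 kept the direction but lost the call and 10 reversed, each on another probe of the gene. With siRNA no. 1 against siRNA no. 2, SRP9 read -0.30 in BE(2)-C, and AP2A1, AP3M1 and SEC24C read -0.15, -0.031 and -0.10 in IMR-32. Against control in BE(2)-C, CLTA with siRNA no. 2 read -0.068 and SEC24C with siRNA no. 1 -0.017. The difference between the lines for CLTB read -0.021, and between the control lines SEC23B read -0.031 and SEC24B -0.032 and -0.0074. Of these probes, those of SRP9 and SEC23B were detected on all 36 arrays and the others on 2 or fewer. Members higher with siRNA no. 2 in BE(2)-C numbered 3 with median scaling and 3 at an adjusted p under 0.01, and 7 were then lower. Members lower with siRNA no. 1 in IMR-32 numbered 10 with the filter on dim probes and 10 with the probe of the largest moderated F. The 1 rise with siRNA no. 2 in IMR-32 became 0 with quantile normalization per cell line, median scaling, the authors' table or an adjusted p under 0.01, and 2 with the dim-probe filter or the intensity trend. The regulated member became 0 in BE(2)-C with normexp, an adjusted p under 0.01 or all 3 time points, and 0 in IMR-32 with median scaling and the latter 2 settings. Apart from the stricter threshold, which is the cause by construction, and the probe choices, the cause was not tested.

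Leaving out 1 array at a time gave 3 to 5 members higher and 7 to 12 lower with siRNA no. 2 in BE(2)-C, 7 to 11 lower with siRNA no. 1 there, 0 to 1 higher with siRNA no. 2 in IMR-32, 0 to 1 regulated in each line and 2 to 5 that differed between the lines with siRNA no. 2. Members that differed between 54 and 42 h in the BE(2)-C controls numbered 5 to 19, a check chosen after seeing the data. The replicate block gave 15 rises and 8 falls for BE(2)-C with siRNA no. 1 and 4 rises and 12 falls with siRNA no. 2, and for IMR-32 8 and 7, then 1 and 4, and lost 2 of the 157 calls, COPG1 with siRNA no. 2 in BE(2)-C at 0.23 (adjusted p = 0.0559) and the difference between the lines for CLTB at 0.27 (adjusted p = 0.0525). For the time course and the differences between the lines some settings (median scaling, normexp and the block for the former, the authors' table, the dim-probe filter and the intensity trend for the latter) were chosen after seeing the data, and they left these counts within 1.5 times. A slide block was not run. Signal close to background limits HDAC11 and COPZ2.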
